A study of Passer montanus with 72 samples.

Results

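Striatum was compared with caudal hippocampus in the brains of 24 Eurasian tree sparrows (Passer montanus), a songbird, by RNA sequencing. Each bird gave 1 library per region, so the comparison used 48 of the 72 libraries of the series, every library labelled striatum and every library labelled caudal hippocampus, paired by bird. The remaining 24 libraries, from rostral hippocampus of the same birds, were used to place the caudal levels beside the rostral ones. All birds were caught in the wild and held in captivity. The labels name 11 females and 13 males and give no treatment, age or behavioural score per bird, and the design text of the series calls the caudal part dorsal. The title of the series concerns neophobia, the avoidance of new objects, which was not analysed here.

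The striatum lies below the pallium and receives dense dopamine input. Most of its neurons are GABAergic medium spiny neurons, which carry dopamine, adenosine and muscarinic receptors and release opioid or tachykinin peptides, with a small population of cholinergic interneurons beside them. The avian hippocampus is a medial part of the pallium, its projection neurons are glutamatergic, and it is known for its role in spatial memory, including memory of food stores in caching species.

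The values are whole-number counts of reads per gene. The caudal hippocampus libraries held 2629433 to 4461916 counts and the striatum libraries 3319685 to 4895476, and the striatum library was the deeper one in 22 of 24 birds. Levels are given as CPM, the usual unit of counts relative to the library total, here after TMM scaling. Folds are log2 folds of striatum over caudal hippocampus, from edgeR's quasi-likelihood test with bird as a block. Their standard errors were derived as the size of the fold over the square root of the F statistic of that test. Rose and fell are used of genes with a Benjamini-Hochberg adjusted p under 0.05. In bulk tissue such as this, fewer cells of a type and less RNA per cell cannot be told apart.

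The labels of the tissues were set against marker genes of their main neurons. Both lists were chosen to differ between these regions, with earlier results of these data known. Their sums describe the libraries and are no test of the labels. The summed level of 25 medium spiny neuron genes was 9911 to 13422 CPM in striatum and 3095 to 5336 in caudal hippocampus, with no overlap. The summed level of pallial glutamatergic neuron genes was 256 to 1373 CPM in striatum and 3124 to 4076 in caudal hippocampus, again with no overlap. SLC17A7, a vesicular glutamate transporter of mammalian hippocampus, had 6 counts over all caudal libraries and 3 over all striatum libraries.

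The striatum libraries of 3 birds stood apart. In bird 11 a count was found in 7718 genes, against 10087 to 11439 in the other striatum libraries. Several of the lowest striatum values below came from it, such as SST at 4.70 CPM against at least 14.6 in the others and GRM2 at 0 against at least 1.27. So did some of the highest, such as RASGRP1 at 1853 CPM against at most 1516. In bird 6 the pallial sum in striatum was 1373 CPM, against 256 to 436 in the others, and SLC17A6 stood at 324 CPM against at most 66.1. In bird 16 the summed levels of the cation channel, cyclic nucleotide and G protein lists were the lowest of all striatum libraries (11638, 7571 and 6907 CPM), while ISL1, at 165 CPM, and LHX8, at 63.5, were the highest. Leaving out these 3 birds together moved no count of genes that rose or fell in any of the 31 gene lists below by more than 2.

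**Figure D1:**
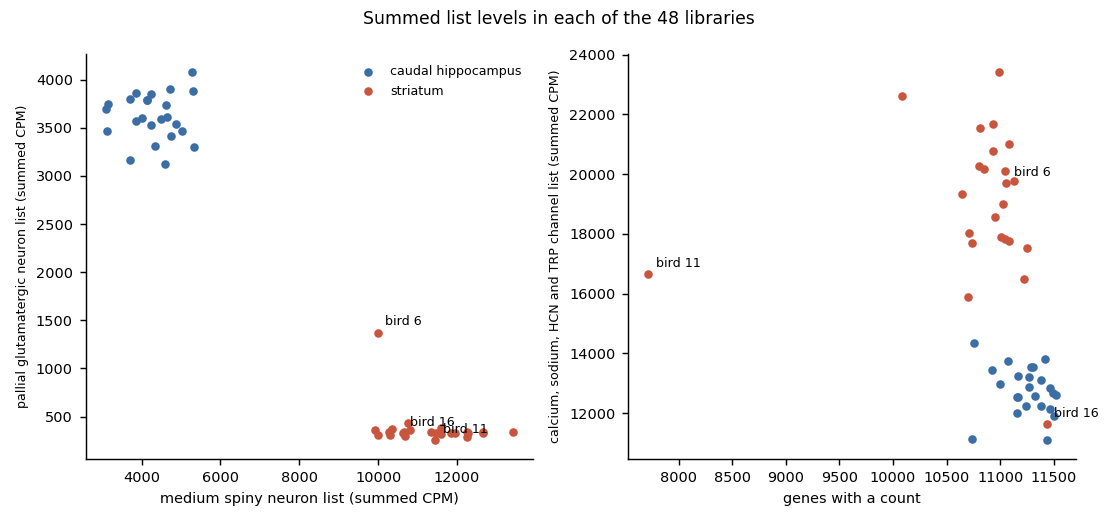
Left, summed CPM of the medium spiny neuron list (x) against the pallial glutamatergic neuron list (y) in each of the 48 libraries; right, number of genes with a count (x) against the summed CPM of the calcium, sodium, HCN and TRP channel list (y). Each point is 1 library, blue for caudal hippocampus and red for striatum, and the striatum libraries of birds 6, 11 and 16 are named: bird 6 lies at 1373 CPM on the pallial axis, bird 11 at 7718 genes, and bird 16 at 11638 CPM on the channel axis, among the caudal libraries.

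Most measured genes differed between the regions. Of 8937 genes tested, 5523 passed the threshold (61.8%), 2627 of them higher in striatum (29.4%) and 2896 lower (32.4%). By a log2 fold of at least 1, 568 rose (6.36%) and 755 fell (8.45%). The same direction in all 24 birds was found for 674 genes that rose and 584 that fell. In 276 genes every striatum library lay above every caudal library (3.09%), and in 182 every striatum library lay below (2.04%). The median log2 fold over all genes tested was -0.03. Shares in brackets after the counts of a list below are the percent of its tested genes that rose or fell, in the order of the counts, to be read beside the 29.4% and 32.4% of all genes. The lists and their members were chosen with earlier results of these data known. The shares are therefore descriptive and no test of a list. Leaving out birds 6, 11 and 16 gave 5625 genes past the threshold, and leaving out bird 11 alone gave 5685.

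**Figure D2:**
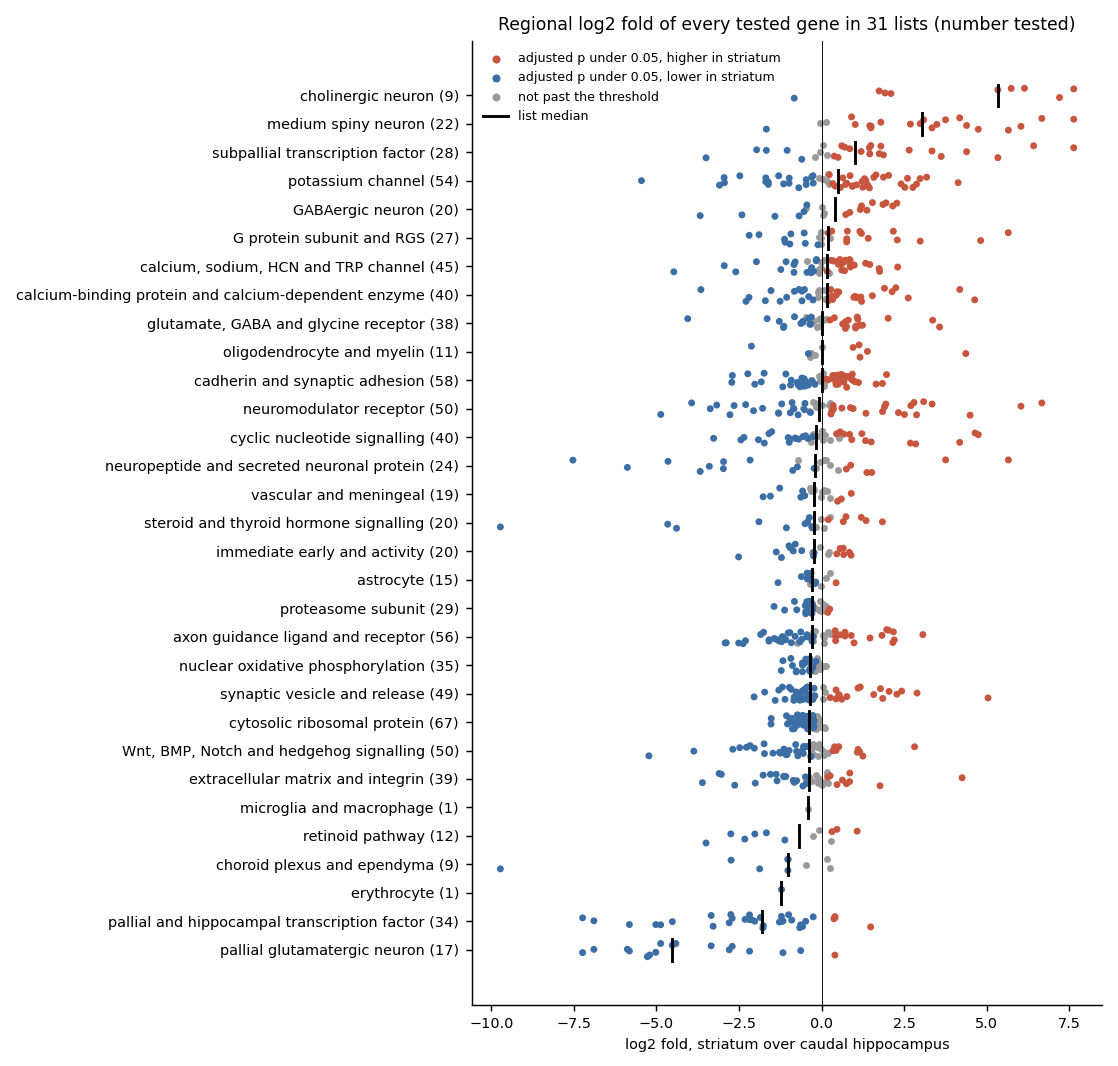
Log2 fold of striatum over caudal hippocampus (x axis) of every tested gene in 31 gene lists (y axis, with the number tested), red for genes that rose, blue for genes that fell and grey for the rest; black bars are list medians. The medium spiny neuron list has its median at 3.04 and the cholinergic list at 5.34, the pallial glutamatergic list at -4.52, and most signalling lists hold genes far out on both sides of 0.

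Receptors, transcription factors, transporters and regulators of signalling were among the 12 largest rises. DRD2, a dopamine receptor, was at 0 to 3.18 CPM in caudal hippocampus (median 0.779) and at 50.7 to 185 CPM in striatum (median 110.2) (log2 fold 6.67 ± 0.22, adjusted p = 1.22e-21). ADORA2A, an adenosine receptor that mammals express in the same medium spiny neurons as DRD2, was at 0 to 4.72 CPM in caudal hippocampus (median 0.327) and at 12.7 to 104 CPM in striatum (median 47.4) (log2 fold 6.04 ± 0.27, adjusted p = 1.53e-18). Every striatum library lay above every caudal library for both. TAC1, the gene of the substance P precursor, was at 2.07 to 102 CPM in caudal hippocampus (median 9.16) and at 197 to 1307 CPM in striatum (median 513) (log2 fold 5.66 ± 0.26), with the lowest striatum library above the highest caudal one. RASGRP1, a Ras activator that responds to diacylglycerol and calcium, was at 8.50 to 41.5 CPM in caudal hippocampus (median 22.6) and at 570.1 to 1853 CPM in striatum (median 957) (log2 fold 5.44 ± 0.14). Other genes among the 12 largest rises were IL16 (6.82), which encodes a precursor of a secreted cytokine and of a neuronal scaffold protein, GPSM1 (5.66), a modulator of G protein signalling, UNC13C (5.04), a vesicle priming protein, and TPD52L1 (4.99).

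The 12 largest falls, ranked in the same way, held 3 NEUROD transcription factors and several secreted proteins. TTR (-9.73), described below, fell further but not in every bird, and so is not among these 12. NEUROD1, a basic helix-loop-helix transcription factor, was at 33.8 to 84.3 CPM in caudal hippocampus (median 57.3) and at 0 to 9.56 CPM in striatum (median 0) (log2 fold -7.23 ± 0.35, adjusted p = 1.08e-17). BDNF, a neurotrophin released by active glutamatergic neurons, was at 14.6 to 49.2 CPM in caudal hippocampus (median 24.3) and at 0 to 2.73 CPM in striatum (median 0.227) (log2 fold -5.88 ± 0.30, adjusted p = 4.52e-17). The groups did not overlap for either gene. DYRK4, a protein kinase gene, was at 245 to 876 CPM in caudal hippocampus (median 459) and at 1.52 to 211 CPM in striatum (median 5.25); its highest striatum value came from bird 6, and the next was 10.4 CPM. NEUROD6 (-6.89), NEUROD2 (-5.82), KCNV1 (-5.45), SIDT1 (-5.43), C1QL3 (-5.27), NRN1 (-5.20), PRDM8 (-5.13) and RSPO3 (-5.23) were also among the 12 largest falls. In striatum, 33.3 CPM of NEUROD6 was found in bird 6 against at most 1.70 in the others.

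**Figure D3:**
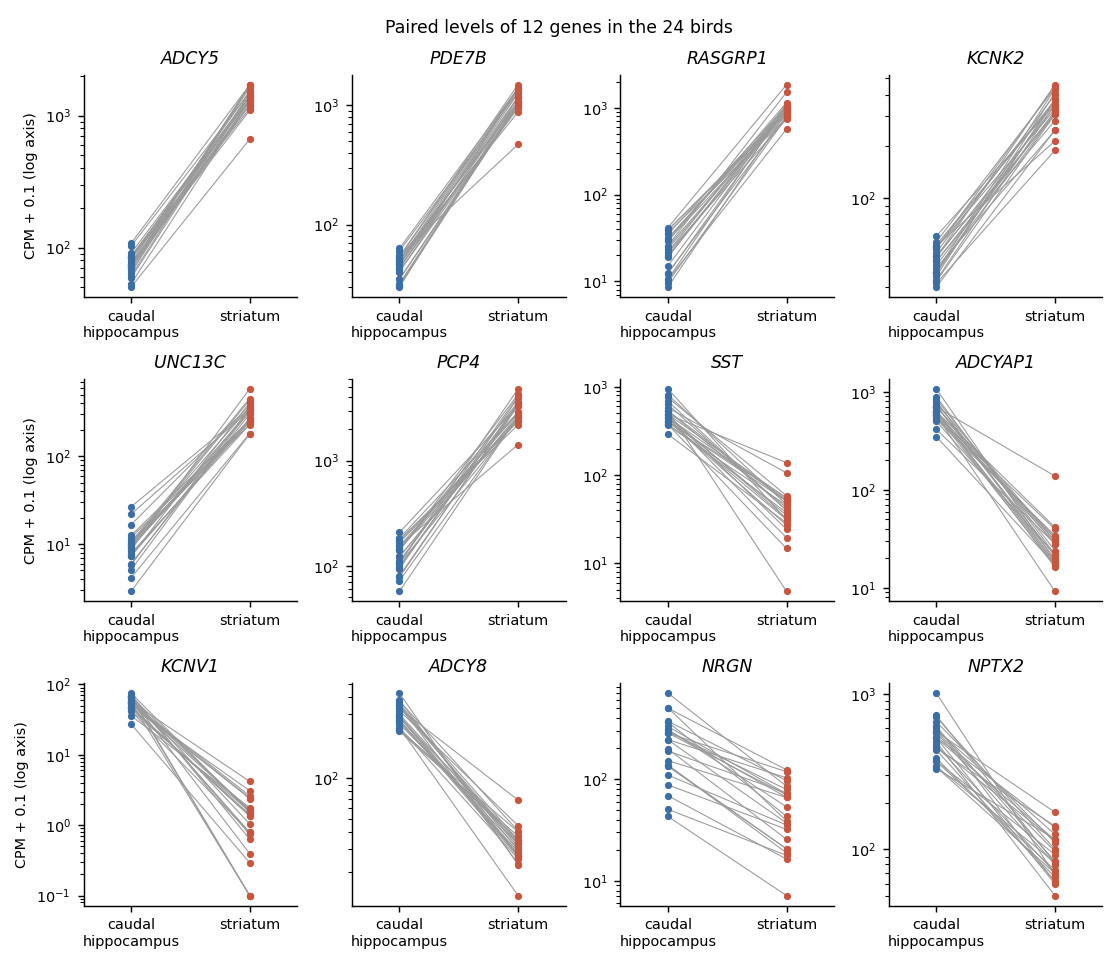
CPM + 0.1 on a log axis of 12 genes in caudal hippocampus (blue, left) and striatum (red, right), with grey lines joining the 2 libraries of each of the 24 birds. All lines of ADCY5, PDE7B, RASGRP1, KCNK2, UNC13C and PCP4 rise and all lines of SST, ADCYAP1, KCNV1, ADCY8, NRGN and NPTX2 fall; the groups overlap only for NRGN.

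Transcription factors of the subpallium were mostly higher in striatum, and those of the pallium mostly lower. Subpallial factors numbered 28 tested, of which 19 rose and 5 fell (67.9% and 17.9%), with a median log2 fold of 1.03. DLX6, a homeobox factor of GABAergic forebrain neurons, was at 9.74 to 24.8 CPM in caudal hippocampus (median 15.8) and at 107 to 255 CPM in striatum (median 207) (log2 fold 3.62 ± 0.09, adjusted p = 1.57e-25). FOXP2, a forkhead factor needed for vocal learning in the songbird striatum, was at 26.4 to 59.98 CPM in caudal hippocampus (median 38.7) and at 182 to 527 CPM in striatum (median 428) (log2 fold 3.34 ± 0.11, adjusted p = 2.97e-22). Every striatum library was above every caudal one for both factors, and EBF1 (4.39 ± 0.14), a factor of developing medium spiny neurons in mice, also rose without overlap. ISL1, a LIM-homeodomain factor of striatal projection and cholinergic neurons, was at 0 in 20 of 24 caudal libraries, reached 22.6 CPM in that of bird 260, and was at 43.7 to 165 CPM in striatum (median 81.9). Members that fell included NR2F2 (-3.50 ± 0.14), an orphan nuclear receptor, IKZF2 (-1.97 ± 0.19) and RARB (-1.67 ± 0.15), a retinoic acid receptor used as a striatal marker in mammals.

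Of 34 pallial and hippocampal factors tested, 30 fell and 4 rose (88.2% and 11.8%), with a median of -1.81, and without birds 6, 11 and 16 the counts were 30 and 5. ZBTB18, a transcriptional repressor of developing pallial neurons, was at 861 to 1333 CPM in caudal hippocampus (median 1072) and at 106 to 404 CPM in striatum (median 147) (log2 fold -2.79 ± 0.08, adjusted p = 4.42e-24). LHX9, a LIM-homeodomain factor of the medial pallium, was at 31.8 to 103 CPM in caudal hippocampus (median 59.1) and at 0 to 8.49 CPM in striatum (median 1.49) (log2 fold -4.87 ± 0.23, adjusted p = 8.51e-18), and NFIA, a nuclear factor I gene, fell as well (-1.76 ± 0.08). For these 3 genes no striatum library reached the lowest caudal one. BCL11B (1.49 ± 0.11), which marks medium spiny neurons in mammals besides deep cortical neurons, ZBTB20 (0.40 ± 0.09) and DACH1 (0.41 ± 0.12) rose, as did BCL11A (0.38), named here because it is the only other member that rose. DACH1 did not pass the threshold in males alone (adjusted p = 0.12) or in the fit over all 72 libraries (adjusted p = 0.0781).

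Among the 22 tested genes of the medium spiny neuron list, 19 rose and 1, RARB, fell (86.4% and 4.55%), and the median was 3.04. DRD1, the main dopamine receptor gene of the direct pathway, was at 49.8 to 132 CPM in caudal hippocampus (median 80.5) and at 413 to 839 CPM in striatum (median 699) (log2 fold 3.09 ± 0.07, adjusted p = 1.57e-25). Every striatum library lay above every caudal one. PDYN, the dynorphin precursor gene, did not pass the filter on low counts: it had 2 counts over all caudal libraries and 261 over 23 striatum libraries, a ratio of summed CPM of 105 (95% interval 28.8 to 872, covering counting error only). The other untested members had more counts in caudal hippocampus: IKZF1 had 100 against 24, a caudal over striatal ratio of 5.17 (95% interval 3.29 to 8.45), and RXRG had 104 against 16, a ratio of 8.07 (95% interval 4.74 to 14.6). SIX3 (-0.06) and ARPP21 (0.13) did not pass the threshold. Pallial glutamatergic neuron genes gave 16 that fell and 1, ZBTB20, that rose among 17 tested (94.1% and 5.88%), with a median of -4.52. SLC17A6, the vesicular glutamate transporter of avian pallium, was at 598 to 1295 CPM in caudal hippocampus (median 949) and at 24.9 to 324 CPM in striatum (median 41.2) (log2 fold -4.41 ± 0.15, adjusted p = 9.22e-22). Neither list changed in its counts when birds 6, 11 and 16 were left out, and both lists were chosen to differ between these regions. The lists of subpallial and pallial factors above were likewise chosen by brain part. Members are shared between them and the neuron lists, such as FOXP2, EBF1 and ISL1, or ZBTB18, LHX9 and NEUROD1. The medium spiny neuron list also shares members with signalling lists below. Examples are DRD1, DRD2 and ADORA2A (receptors), PENK and TAC1 (peptides), ADCY5 and PDE10A (cyclic nucleotides) and RGS9 (G proteins). LHX8 is in both the subpallial and the cholinergic list. The results of these lists are therefore not independent.

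Receptors for dopamine, acetylcholine and peptides divided between the regions. Of 50 neuromodulator receptor genes tested, 21 rose and 20 fell (42% and 40%), with a median of -0.08, while their summed level was higher in striatum in 24 of 24 birds. DRD5, a dopamine receptor coupled to cyclic AMP synthesis, was at 6.85 to 36.2 CPM in caudal hippocampus (median 19.95) and at 204 to 711 CPM in striatum (median 454) (log2 fold 4.50 ± 0.12, adjusted p = 1.62e-24). CHRM4, an inhibitory muscarinic receptor, was at 11.5 to 27.5 CPM in caudal hippocampus (median 18.1) and at 116 to 252 CPM in striatum (median 191) (log2 fold 3.35 ± 0.09, adjusted p = 2.17e-24). Neither gene overlapped between the regions. Other dopamine and acetylcholine receptor genes, also chosen after their values were seen, fell: D1DR (-4.87), named as a dopamine receptor in the table, CHRM3 (-2.77), a muscarinic receptor, and CHRNA4 (-2.06), a nicotinic subunit. Under the filter, DRD3 had 106 counts in caudal hippocampus and 47 in striatum, and DRD4 had 1 and 104. The receptors for corticotropin-releasing hormone went the other way: CRHR1 was at 6.26 to 18.3 CPM in caudal hippocampus (median 12.5) and at 0 to 4.37 CPM in striatum (median 0.991) (log2 fold -3.37 ± 0.26, adjusted p = 1.31e-12), and CRHR2 was at 37.2 to 78.9 CPM in caudal hippocampus (median 60.9) and at 1.61 to 29.5 CPM in striatum (median 11.98) (log2 fold -2.30 ± 0.14, adjusted p = 3.45e-15). No striatum library reached the caudal range for either. GFRA2, a coreceptor for neurturin, fell too (-2.65 ± 0.13). Chosen after their values were seen, the opioid receptor genes OPRK1 (2.33), OPRM1 (1.34) and OPRD1 (0.96) rose, and the somatostatin receptor genes SSTR5 (-3.93), SSTR3 (-1.20), SSTR1 (-0.95), SSTR2 (-0.85) and SSTR4 (-0.71) fell. OPRL1 (0.29), of the opioid receptor family, did not pass the threshold. Of the serotonin receptor genes, HTR2A (2.88), HTR1B (2.80), HTR4 (1.91), HTR7 (1.85) and HTR2C (0.33) rose and HTR1A (-1.78) fell, while HTR1F (-0.37) and HTR1E did not pass the threshold. Under the filter, HTR2B had 244 counts in caudal hippocampus and 24 in striatum, HTR1D had 75 and 28, HTR5A had 47 and 38, and HTR6 had 109 and 260.

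Peptide genes also moved in both directions, with more falls than rises. Of 24 genes for peptides and other secreted neuronal proteins, 6 rose and 11 fell (25% and 45.8%), with a median of -0.19. PENK, the enkephalin precursor gene, was at 49.3 to 179.9 CPM in caudal hippocampus (median 99.6) and at 285 to 2423 CPM in striatum (median 1293) (log2 fold 3.76 ± 0.17, adjusted p = 1.91e-18), without overlap. SST, the somatostatin gene, was at 290.2 to 950.5 CPM in caudal hippocampus (median 476) and at 4.70 to 138 CPM in striatum (median 39.7) (log2 fold -3.67 ± 0.18, adjusted p = 8.7e-18), and ADCYAP1, the gene of the peptide PACAP, was at 349 to 1073 CPM in caudal hippocampus (median 630.4) and at 9.14 to 138 CPM in striatum (median 22.9) (log2 fold -4.65 ± 0.16, adjusted p = 2.9e-21). Both were lower in every striatum library than in any caudal library. Smaller rises, in all 24 birds but with overlap between the regions, were seen for NPY (1.37 ± 0.11), the gene of neuropeptide Y, CCK (1.52 ± 0.16), the cholecystokinin gene, and NXPH1 (0.75 ± 0.06), a neurexin ligand. UTS2B, a urotensin-related peptide gene, had 885 counts over all caudal libraries and 2 over all striatum libraries, a ratio of summed CPM of 549 (95% interval 152 to 4544).

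Cyclases and phosphodiesterases of cyclic nucleotide signalling moved in both directions. Of 40 genes of this pathway tested, 13 rose and 17 fell (32.5% and 42.5%), with a median of -0.16, and the summed level was higher in striatum in 24 of 24 birds. ADCY5, the main adenylyl cyclase of mammalian striatum, was at 49.96 to 107 CPM in caudal hippocampus (median 74.8) and at 661 to 1716 CPM in striatum (median 1393) (log2 fold 4.18 ± 0.07, adjusted p = 2.9e-29). ADCY8, a calcium-stimulated adenylyl cyclase, was at 224 to 431 CPM in caudal hippocampus (median 290.3) and at 13.3 to 68.8 CPM in striatum (median 30.3) (log2 fold -3.27 ± 0.10, adjusted p = 7.17e-23). The groups were apart in both genes, in opposite directions, and ADCY2 fell with ADCY8 (-2.44 ± 0.11). The phosphodiesterase genes PDE10A (4.75 ± 0.13) and PDE7B (4.65 ± 0.09) rose without overlap, and PRKAR1B (-1.59 ± 0.07), a regulatory subunit of protein kinase A, fell without overlap. In striatum bird 16 had the lowest levels of PDE10A (169 CPM), PDE7B (469) and ADCY5 (661), each still above the caudal range.

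Of 27 genes of G protein subunits and their regulators, 13 rose and 9 fell (48.1% and 33.3%), with a median of 0.20. RGS10, which speeds the shut-off of G alpha subunits, was at 1.21 to 14.1 CPM in caudal hippocampus (median 5.59) and at 43.02 to 284 CPM in striatum (median 164) (log2 fold 4.82 ± 0.15, adjusted p = 2.97e-22). GPSM1 was at 0.692 to 6.16 CPM in caudal hippocampus (median 2.84) and at 85.1 to 242 CPM in striatum (median 168) (log2 fold 5.66 ± 0.13, adjusted p = 1.57e-25), while its relative GPSM2 was at 68.05 to 125 CPM in caudal hippocampus (median 91.3) and at 24.1 to 61.4 CPM in striatum (median 44.8) (log2 fold -1.10 ± 0.06, adjusted p = 1.77e-16). The regions did not overlap for these 3 genes, and the pair of GPSM genes moved apart. RGS12 rose (2.29 ± 0.12), and RGS7 (-1.12 ± 0.07) and RGS6 (-1.89 ± 0.14), which act on inhibitory G proteins, fell.

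Potassium channel genes rose more often than they fell. Of 54 tested, 30 rose and 19 fell (55.6% and 35.2%), with a median of 0.49, and without birds 6, 11 and 16 the counts were 31 and 19. KCNK2, a background leak channel opened by stretch and lipids, was at 29.99 to 59.7 CPM in caudal hippocampus (median 42.6) and at 189 to 458 CPM in striatum (median 347) (log2 fold 2.99 ± 0.08, adjusted p = 9e-25). KCNA4, a voltage-gated channel that inactivates fast, was at 83.4 to 139 CPM in caudal hippocampus (median 122) and at 408 to 929 CPM in striatum (median 723) (log2 fold 2.6 ± 0.07, adjusted p = 7.48e-25). Their ranges were apart, as was that of DPP6 (1.45 ± 0.05), an accessory subunit of A-type channels. KCNV1, a silent subunit that modifies other voltage-gated channels, was at 27.4 to 75.4 CPM in caudal hippocampus (median 55.9) and at 0 to 4.10 CPM in striatum (median 1.29) (log2 fold -5.45 ± 0.23, adjusted p = 3.52e-19). KCNJ6, an inward rectifier opened by G proteins, was at 41.7 to 77.2 CPM in caudal hippocampus (median 60.1) and at 2.54 to 19.4 CPM in striatum (median 7.82) (log2 fold -2.95 ± 0.14, adjusted p = 2.75e-18). Both fell below the caudal range in every striatum library. KCNAB2, a beta subunit, fell with overlap (-1.69 ± 0.08); the summed level of the list was higher in striatum in 23 of 24 birds, bird 16 being the exception.

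Calcium handling also differed. In the list of calcium, sodium, HCN and TRP channels and calcium pumps, 22 of 45 rose and 16 fell (48.9% and 35.6%), with a median of 0.17. ITPR1, the inositol trisphosphate receptor that releases stored calcium, was at 545 to 1129.6 CPM in caudal hippocampus (median 874) and at 1469 to 3691 CPM in striatum (median 3224) (log2 fold 1.74 ± 0.08, adjusted p = 2.87e-18). RYR3, a ryanodine receptor that also releases stored calcium, was at 312 to 910.1 CPM in caudal hippocampus (median 487) and at 41.1 to 317 CPM in striatum (median 76.7) (log2 fold -2.6 ± 0.14, adjusted p = 9.3e-17). The first gene did not overlap, and the second overlapped through bird 6, whose striatum library held 317 CPM. ATP2B2 (1.46 ± 0.08), a calcium pump of the plasma membrane, and CACNA2D3 (2.31 ± 0.12), a calcium channel subunit, rose, and TRPM3 (-4.47 ± 0.22) and ATP2A3 (-2.95 ± 0.17), a calcium pump of the endoplasmic reticulum, fell.

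Calcium-binding proteins and calcium-dependent enzymes gave 20 genes that rose and 14 that fell among 40 (50% and 35%), with a median of 0.15. PCP4, a small calmodulin-binding protein, was at 56.9 to 208 CPM in caudal hippocampus (median 122) and at 1424 to 4825 CPM in striatum (median 2890.0) (log2 fold 4.64 ± 0.14, adjusted p = 1.53e-22). NRGN, neurogranin, which binds calmodulin at postsynaptic sites, was at 42.8 to 701 CPM in caudal hippocampus (median 244) and at 7.05 to 123 CPM in striatum (median 48.1) (log2 fold -2.20 ± 0.13, adjusted p = 2.49e-15). PCP4 did not overlap and NRGN did, although NRGN fell in each of the 24 birds. DGKZ (2.63 ± 0.12), a diacylglycerol kinase, and CALB1 (1.54 ± 0.07), calbindin, rose. The neuronal calcium sensors NCALD (-3.65 ± 0.12) and VSNL1 (-1.70 ± 0.10) fell without overlap.

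Receptors for the fast transmitters split between the regions. Of 38 glutamate, GABA and glycine receptor genes, 17 rose and 13 fell (44.7% and 34.2%), with a median of 0.02. GABRA5, a GABA-A receptor subunit, was at 106 to 483 CPM in caudal hippocampus (median 239) and at 1529 to 3347 CPM in striatum (median 2537) (log2 fold 3.37 ± 0.12, adjusted p = 8.43e-21). GRM2, an inhibitory metabotropic glutamate receptor, was at 59.7 to 138 CPM in caudal hippocampus (median 92.1) and at 0 to 37.7 CPM in striatum (median 5.46) (log2 fold -4.05 ± 0.25, adjusted p = 2.58e-15). The regions were apart for both genes. GRM4 rose (2.02 ± 0.07), and the GABA-B subunit gene GABBR2 (-1.28 ± 0.07) and the AMPA receptor subunit gene GRIA4 (-1.15 ± 0.06) fell.

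Genes of synaptic vesicles and transmitter release fell more often than they rose, 28 against 17 of 49 (57.1% and 34.7%, both above the shares of all genes), with a median of -0.36 and a lower summed level in striatum in 21 of 24 birds. SYN2, a synapsin, was at 1062 to 1565 CPM in caudal hippocampus (median 1266) and at 529 to 911 CPM in striatum (median 675) (log2 fold -0.92 ± 0.05, adjusted p = 1.09e-16). RIMS1, a scaffold of the active zone, was at 461 to 634 CPM in caudal hippocampus (median 563) and at 193 to 377 CPM in striatum (median 239.5) (log2 fold -1.19 ± 0.05, adjusted p = 5.27e-19). Neither overlapped. VAMP2, the vesicle SNARE, fell with overlap (-0.97 ± 0.07). UNC13C was at 2.79 to 26.4 CPM in caudal hippocampus (median 9.12) and at 179 to 586 CPM in striatum (median 310.1) (log2 fold 5.04 ± 0.13, adjusted p = 2.43e-24), and SYT6, a synaptotagmin, rose too (2.89 ± 0.09).

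GABAergic and cholinergic markers were higher in striatum with exceptions. Of 20 GABAergic neuron genes, 10 rose and 6 fell (50% and 30%), with a median of 0.40. SLC32A1, the vesicular GABA transporter, was at 137 to 283 CPM in caudal hippocampus (median 225) and at 732 to 1275 CPM in striatum (median 1069) (log2 fold 2.28 ± 0.07, adjusted p = 8.13e-23). GAD2, which makes GABA, was at 143 to 295 CPM in caudal hippocampus (median 212) and at 553 to 1212 CPM in striatum (median 808) (log2 fold 1.95 ± 0.07, adjusted p = 1.2e-20). Both were apart between the regions. The interneuron factors SOX6 (-1.41 ± 0.11) and MAF (-2.41 ± 0.20) fell with SST, and LHX6 did not pass the threshold (0.05). Of 9 cholinergic genes, 8 rose and 1 fell (88.9% and 11.1%), with a median of 5.34. SLC5A7, the choline transporter, was at 0 to 0.807 CPM in caudal hippocampus (median 0) and at 4.93 to 24.4 CPM in striatum (median 10.8) (log2 fold 6.15 ± 0.31, adjusted p = 2.57e-17). SLC18A3, which loads acetylcholine into vesicles, was at 0 to 1.29 CPM in caudal hippocampus (median 0.29) and at 10.7 to 34.4 CPM in striatum (median 20.9) (log2 fold 5.74 ± 0.25, adjusted p = 7.95e-19), and LHX8 was at 0 to 2.70 CPM in caudal hippocampus (median 0.327) and at 15.1 to 63.5 CPM in striatum (median 24) (log2 fold 5.34 ± 0.27, adjusted p = 1.99e-17). All 3 genes were apart. ACHE, acetylcholinesterase, was the member that fell (-0.83 ± 0.12), with overlap.

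Axon guidance genes fell more often than they rose, 29 against 16 of 56 (51.8% and 28.6%, the share that rose being close to that of all genes), with a median of -0.30. EPHA4, an ephrin receptor, was at 116 to 252 CPM in caudal hippocampus (median 195) and at 365 to 638 CPM in striatum (median 523) (log2 fold 1.47 ± 0.07, adjusted p = 5.24e-18). SEMA3D, a secreted semaphorin, was at 30.98 to 136 CPM in caudal hippocampus (median 59.2) and at 2.68 to 18.5 CPM in striatum (median 8.14) (log2 fold -2.92 ± 0.19, adjusted p = 1e-14). The regions were apart for both. EPHB1 (2.03 ± 0.10) and EFNA5 (1.83 ± 0.10) rose, and EPHA3 (-1.84 ± 0.10) and EPHB6 (-2.89 ± 0.17) fell, all without overlap, so ephrin receptors were found on both sides. Cadherins and synaptic adhesion genes were evenly divided, with 26 that rose and 24 that fell of 58 (44.8% and 41.4%) and a median of 0.01. CDH8 (1.02 ± 0.06), CDH20 (1.97 ± 0.10) and CNTNAP5 (1.84 ± 0.09) rose, and PCDH15 (-2.70 ± 0.11) and LRRC4 (-1.74 ± 0.09) fell, each without overlap. Extracellular matrix and integrin genes gave 9 that rose and 18 that fell of 39 (23.1% and 46.2%), while their summed level was higher in striatum in 24 of 24 birds, by a log2 ratio of 0.13 to 0.78 (median 0.36). COL5A2, a fibrillar collagen chain, was at 9.21 to 25.5 CPM in caudal hippocampus (median 15.3) and at 153 to 464 CPM in striatum (median 312) (log2 fold 4.26 ± 0.11, adjusted p = 3.35e-24), without overlap, while COL6A3 (-3.10 ± 0.28), ITGA9 (-3.04 ± 0.27) and NCAN (-1.08 ± 0.09), a proteoglycan, fell. SPOCK3 (1.77 ± 0.09) and RELN (0.86 ± 0.07), reelin, rose.

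Developmental signals were lower in striatum more often than higher. Of 50 Wnt, BMP, Notch and hedgehog genes, 26 fell and 9 rose (52% and 18%), with a median of -0.38. RSPO3, a secreted amplifier of Wnt signalling, was at 45.7 to 170.2 CPM in caudal hippocampus (median 84.8) and at 0 to 47.5 CPM in striatum (median 2.06) (log2 fold -5.23 ± 0.30, adjusted p = 8.21e-16), where 47.5 CPM in the striatum of bird 6 gave the overlap. TCF7L2, a nuclear effector of Wnt signalling, was at 5.41 to 18.1 CPM in caudal hippocampus (median 10.3) and at 50.1 to 124 CPM in striatum (median 73.2) (log2 fold 2.82 ± 0.11, adjusted p = 1.17e-19), without overlap. ID2 (-2.48 ± 0.12), an inhibitor of basic helix-loop-helix factors, and NOG (-2.03 ± 0.18), a BMP antagonist, fell, and JAG2 (1.15 ± 0.07), a Notch ligand, and ID4 (1.09 ± 0.06) rose. Of 12 retinoid pathway genes 6 fell and 3 rose (50% and 25%), with NR2F1 (-2.75 ± 0.14) among the falls and RDH10 (1.08 ± 0.11), RARA (0.32 ± 0.07) and RARG (0.47 ± 0.18) as the rises. In males alone, 1 of the 3 rises passed the threshold. RLBP1, a retinaldehyde-binding protein gene of the retinoid list that was under the filter, had 980 counts over 17 caudal libraries and 0 over the striatum libraries, at least 406-fold higher in caudal hippocampus against a floor of 3 counts over the group. LRAT, a retinol esterifying enzyme gene of the same list, had 96 counts in caudal hippocampus and 456 in striatum. Both were picked after their values were seen.

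Steroid and thyroid signalling gave 6 genes that rose and 10 that fell of 20 (30% and 50%). CYP19A1, aromatase, which makes oestrogen from androgen, was at 1.38 to 35.1 CPM in caudal hippocampus (median 13.8) and at 0 to 7.31 CPM in striatum (median 0.248) (log2 fold -4.39 ± 0.40, adjusted p = 4.97e-11). It was lower in striatum in each bird, though the ranges overlapped: the lowest caudal library was that of bird 8, and the highest striatum libraries were those of birds 11 and 16. ESR1, an oestrogen receptor gene, did not pass the filter on low counts, with 191 counts over the caudal libraries and 8 over the striatum libraries. SGK1 (1.35 ± 0.07), a kinase induced by corticosteroids, NCOA3 (1.20 ± 0.08) and NR3C1 (0.66 ± 0.08), the glucocorticoid receptor, rose, and ZBTB16 (-1.90 ± 0.11) fell. Of 20 immediate early and activity genes, 6 rose and 10 fell (30% and 50%). NPTX2, a secreted pentraxin of excitatory synapses, was at 330.3 to 1013 CPM in caudal hippocampus (median 522) and at 50.4 to 173 CPM in striatum (median 83.1) (log2 fold -2.51 ± 0.12, adjusted p = 3.17e-18), without overlap. JUN (-0.79 ± 0.08) and FOSL2 (-0.95 ± 0.10) fell, HOMER1 (0.89 ± 0.07), CREM (0.56 ± 0.09) and DUSP4 (0.84 ± 0.15) rose, and FOS did not pass the threshold (-0.05).

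Markers of glia, vessels and blood moved in both directions. Of 11 oligodendrocyte genes, 5 rose and 2 fell (45.5% and 18.2%), with a median of 0.01. MBP, myelin basic protein, was at 66.96 to 264 CPM in caudal hippocampus (median 164) and at 167 to 1209 CPM in striatum (median 398) (log2 fold 1.39 ± 0.16, adjusted p = 3.67e-09), and rose in 23 of 24 birds with overlap. ENPP6 (4.37 ± 0.34) rose too, TF (-2.12 ± 0.25), transferrin, fell, and ASPA was at -0.40 ± 0.14, with an adjusted p of 0.06 without birds 6, 11 and 16. The summed level of this list was 396 to 1665 CPM in striatum and 250.3 to 1100.4 in caudal hippocampus, higher in striatum in 18 of 24 birds and highest in the striatum of bird 6, at 1665 CPM. Astrocyte genes gave 9 that fell and 1 that rose of 15 (60% and 6.67%; 2 that rose without any one of birds 2, 4, 6 and 13), with 2 that fell in males alone and 7 in females alone. GLUL (-0.32 ± 0.05), glutamine synthetase, fell in all birds, and FABP7 (-1.32 ± 0.13) and MLC1 (-0.44 ± 0.09) fell while SLC6A11 rose (0.44 ± 0.12). Vascular and meningeal genes gave 6 that fell and 3 that rose of 19 (31.6% and 15.8%, the share that fell being close to that of all genes), and 3 that fell without any one of birds 2, 21 and 262. COL4A1 (-1.77 ± 0.17), COL4A2 (-1.55 ± 0.25) and TAGLN (-1.27 ± 0.29) fell, and ABCB1 (0.90 ± 0.21), TEK (0.60 ± 0.19) and VWF (0.49 ± 0.14) rose. HBAD, a haemoglobin gene, fell (-1.23 ± 0.18), and CSF1R, the only microglial gene tested, did not pass the threshold (-0.40). Summed levels were 2959 to 4299 CPM in striatum and 3347 to 5280 in caudal hippocampus for the astrocyte list, 154 to 359 and 210 to 407 for the vascular list, 2.67 to 25.8 and 6.68 to 34.5 for the microglial list, and 5.76 to 38.2 and 18.6 to 71.6 for the erythrocyte list. All of these ranges overlapped, and the part of these cells in the other results was not tested.

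Genes of the choroid plexus and ependyma were lower in striatum and varied widely between caudal libraries. Of 9 tested, 6 fell (66.7%) and none rose, with a median of -1.02, and 1 rose without birds 6, 11 and 16 together or without any one of 9 birds (2, 3, 4, 6, 9, 13, 16, 17 and 20). In females alone 3 fell, and in males alone 3 fell. The summed level was 104 to 252 CPM in striatum and 122 to 2847 in caudal hippocampus, and it was higher in striatum in 5 of 24 birds. Its log2 ratio of striatum over caudal hippocampus ran down to -4.60 among males (bird 2) but only to -0.87 among females (bird 13). The part of these genes in the other results was not tested. TTR, transthyretin, a secreted thyroid hormone carrier made in large amount by choroid plexus, had 5 to 10470 counts in the caudal libraries of males (median 2295) and 5 to 177 in those of females (median 17). Among striatum libraries, 2 of each sex had any count, with at most 27. The log2 fold was -9.73 ± 0.74 (adjusted p = 7.54e-13), and TTR was lower in striatum in 23 of 24 birds. AQP1 (-2.74 ± 0.34), a water channel, and KL (-1.87 ± 0.43) fell. List members under the filter did not all have more counts in caudal hippocampus. OTX2 had 236 counts over 14 caudal libraries and 1 in striatum and SLC13A4 had 728 against 242, while PRLR had 85 in caudal hippocampus and 195 in striatum, a striatal over caudal ratio of 1.85 (95% interval 1.42 to 2.41), and MSX1 had 82 and 101. These were chosen after their values were seen.

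Genes of protein synthesis, respiration and proteolysis were mostly lower in striatum, by small folds. Of 67 cytosolic ribosomal protein genes, 53 fell (79.1%) and none rose, with a median of -0.37, of 35 nuclear oxidative phosphorylation genes 25 fell (71.4%) and none rose (1 rose without any one of birds 2, 3, 9, 16, 17 and 21), with a median of -0.35, and of 29 proteasome genes 18 fell and 2 rose (62.1% and 6.9%), with a median of -0.29. RPS29 (-0.96 ± 0.12), RPS15A (-0.74 ± 0.11), NDUFA4 (-1.22 ± 0.21), ATP5F1E (-0.76 ± 0.14) and PSMD8 (-0.75 ± 0.09) fell with overlap, and PSMD11 rose (0.25 ± 0.05). In males alone 29 ribosomal and 9 oxidative phosphorylation genes fell. The summed ribosomal level was lower in striatum in 18 of 24 birds. Among caudal libraries it was highest in that of bird 260, at 21205.5 CPM against a caudal median of 12634.8. The oxidative phosphorylation and proteasome sums of that library were also the highest of the caudal libraries. The regional difference ran with gene length. Among 5 equal groups of genes by length, in the shortest group (83 to 2024 bases) 49.9% fell and 11.4% rose, with a median of -0.27, and in the longest group 26.6% fell and 40.6% rose, with a median of 0.10. Of these lists, 65 of the 67 ribosomal, 33 of the 35 oxidative phosphorylation and 24 of the 29 proteasome genes were in the shortest group, where their medians were -0.35, -0.35 and -0.36. The median of the shortest group lay below that of the longest in 20 of 24 birds, with differences of -0.99 to 0.18 (median -0.32). The part of gene length in these lists was not tested.

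**Figure D4:**
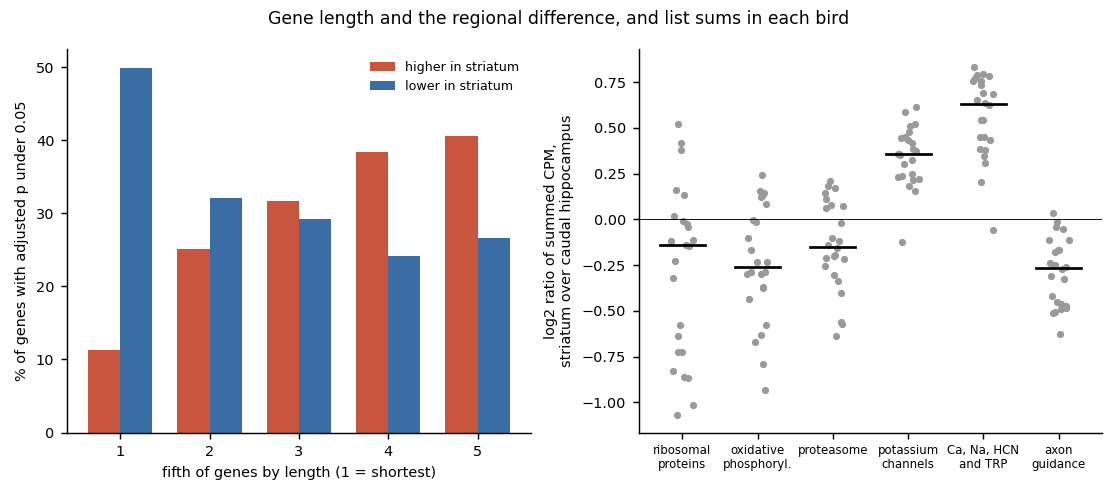
Left, percent of genes (y axis) that rose (red) or fell (blue) in each of 5 equal groups of genes by length (x axis, 1 is the shortest); right, log2 ratio of summed CPM, striatum over caudal hippocampus, for 6 lists (x axis), with 1 grey point per bird and a black bar at the median. The share that fell is 49.9% in the shortest group and 26.6% in the longest, and the ribosomal, respiratory and proteasome sums fall on both sides of 0 across birds while the channel sums lie above it in 23 of 24 birds.

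Some of these genes also differed along the hippocampus. Of the genes named by size of fold or by list, 15 had caudal and rostral levels that differed by a log2 fold of at least 1, tested over all 72 libraries, where the caudal libraries are shared with the comparison above. Rostral CPM are from the scaling of all 72 libraries, and caudal and striatal CPM from that of the 48. ADORA2A was at 0 to 13.5 CPM in rostral hippocampus (median 4.43) (caudal minus rostral -2.42 ± 0.35, adjusted p = 1.46e-07), and RASGRP1 was at 20.1 to 100.3 CPM in rostral hippocampus (median 66.9) (-1.48 ± 0.15). By their medians both were lowest in caudal hippocampus and highest in striatum. C1QL3, a synaptic organiser, was at 32.4 to 152 CPM in rostral hippocampus (median 91.5) (-1.54 ± 0.16), SEMA3D at 66.8 to 249 CPM in rostral hippocampus (median 158) (-1.31 ± 0.15) and ATP2A3 at 252 to 1537 CPM in rostral hippocampus (median 552) (-1.04 ± 0.18). By their medians these 3 genes were highest in rostral hippocampus and lowest in striatum. NR2F2 was at 219.6 to 471 CPM in rostral hippocampus (median 357) (1.54 ± 0.12), with a caudal median of 993 CPM and a striatal one of 79.6, and CYP19A1 was at 0 to 8.52 CPM in rostral hippocampus (median 2.69) (2.62 ± 0.35). Higher caudal than rostral levels were also found for UTS2B (2.09 ± 0.35), AQP1 (1.77 ± 0.30), NRGN (1.06 ± 0.13), DACH1 (1.43 ± 0.19) and TTR (8.57 ± 0.62), whose rostral median was 0.311 CPM. SLC18A3 (1.31 ± 0.45) and LHX8 (1.4 ± 0.44) were at or near 0 in both hippocampal parts, and ABCB1 was lower in the caudal part (-1.02 ± 0.19).

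**Figure D5:**
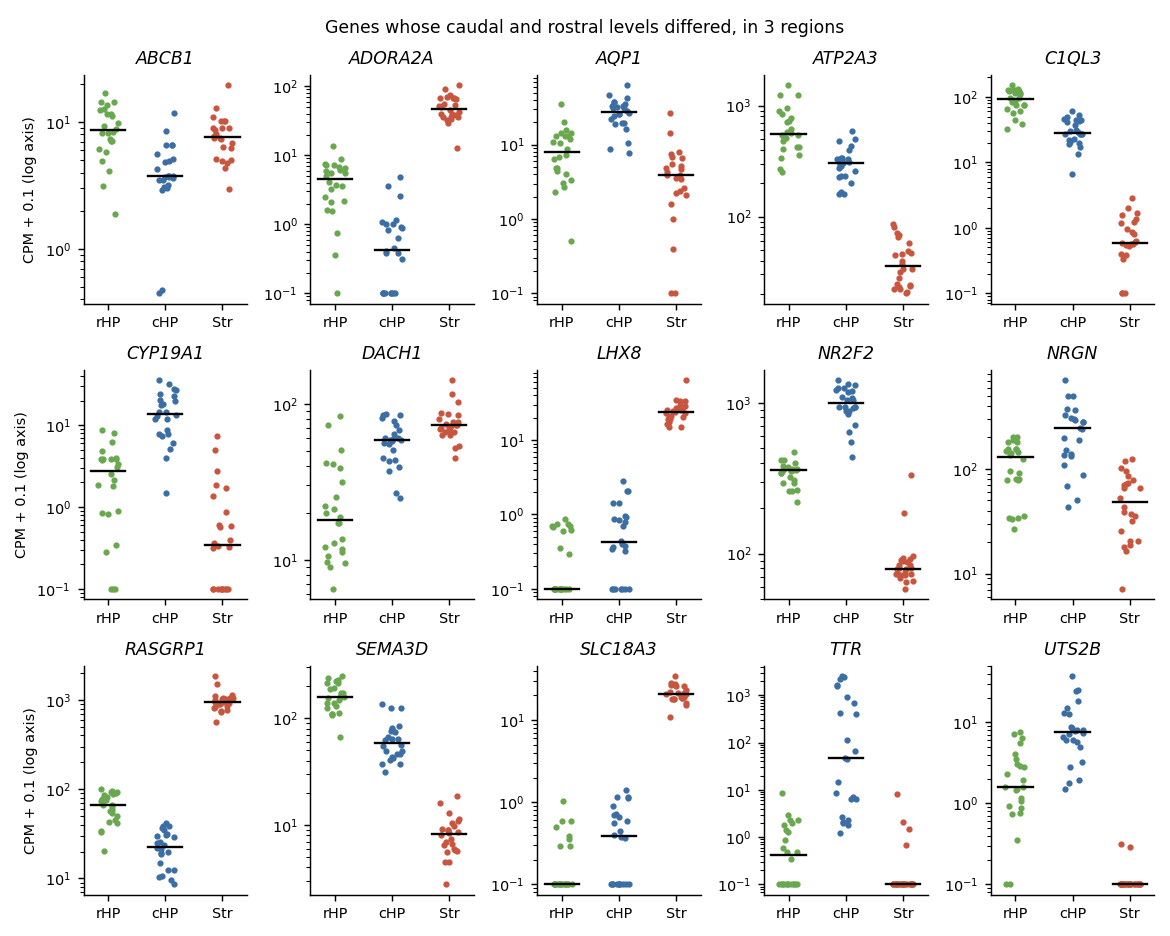
CPM + 0.1 on a log axis of the 15 genes in rostral hippocampus (rHP, green), caudal hippocampus (cHP, blue) and striatum (Str, red), with 1 point per bird and a black bar at the median. Rostral values were scaled over all 72 libraries and the others over the 48. NR2F2 has its median at 357 CPM in rostral and 993 in caudal hippocampus and at 79.6 in striatum, and ADORA2A steps from 0.327 in caudal to 4.43 in rostral hippocampus and 47.4 in striatum.

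The regional difference was compared between birds labelled female and male. No gene of 8937 passed the threshold (0%), with 296 at an unadjusted p under 0.05, and DESeq2 also found 0, with 388. CHD1W, a gene of the female-specific W chromosome, had 101 to 216 counts in the 20 libraries of the other birds labelled female, and 0 in both libraries of bird 260, which is labelled female, and in every library labelled male. Without bird 260 the number past the threshold was also 0. The 6 genes with the smallest p were TTR, RGS9, PCDH20, C2H7orf25, E2F4 and NXPH1. For TTR the mean paired log2 difference was -3.41 ± 2.71 in females (SD, n = 11) and -8.80 ± 3.83 in males (SD, n = 13), a difference of -7.77 ± 1.63 (SE) in the fitted model, with an adjusted p of 0.433 by edgeR. RGS9, a regulator of dopamine receptor signalling, had a paired difference of 3.62 ± 0.90 in females (SD, n = 11) and 2.43 ± 0.73 in males (SD, n = 13), with an adjusted p of 0.996 by edgeR. Neither difference between the sexes passed the threshold.

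The paired regional difference varied most between birds for TTR, HES5, SERPINF1, AQP1 and SEMA3E. The ranking took genes with a mean of at least 10 CPM and was not repeated without bird 11. In the striatum of that bird SERPINF1 was at 0 CPM against at least 0.44 in the others. SEMA3E was at 0.78 there against at least 2.71 in the others. HES5 and AQP1 were at 0 CPM there, but 0 was also the lowest striatum value among the other birds. The SD of the paired log2 difference was 4.29 for TTR, 2.23 for HES5, a Notch target gene, and 2.21 for SERPINF1. The paired difference of HES5 ran from -4.23 to 3.70 over birds, with 11 birds higher in striatum and 13 lower, and its level was 1.20 to 25.8 CPM in caudal hippocampus (median 9.56) and 0 to 33.97 CPM in striatum (median 9.58). SEMA3E was higher in striatum in 12 birds and lower in 12. Neither HES5 (-0.26 ± 0.44, adjusted p = 0.625) nor SEMA3E (0.06 ± 0.34, adjusted p = 0.893) passed the threshold. SERPINF1, a secreted serpin, fell (-1.83 ± 0.41).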

How the data were processed

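RNA was prepared from 24 birds with a lipid tissue kit, per the labels' protocols. The deposited table holds raw counts per gene, and HISAT2 and StringTie are named in the submitters' processing notes. Of versions, genome build, counting options and strand setting nothing was stated (not given in the sources used here). None of its gene IDs matched RefSeq's tree sparrow annotation (ASM1480565v1), while 12417 names did, so no coordinates are printed. Reads of paralogues and of overlapping or antisense genes may be shared between them.

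Genes under edgeR's filter (minimum count 10, minimum total 15) were left out, giving 8937 of 21957. Counts of the 48 libraries were TMM-scaled and tested in edgeR 4.0.16 (R 4.3.3) with bird as a block, Benjamini-Hochberg adjusted over all genes. The pairing is by bird, per the labels: deviations from the group means correlated with a median r of 0.22 within a bird (0.0548 to 0.425) and -0.0137 between birds. A model with sex tested the difference between sexes, and all 72 libraries served for rostral hippocampus. In data simulated from these counts, 46 of 50 genes changed 2-fold were recovered between regions. That number does not apply to the test between sexes, whose recovery is not reported here. The simulated data held no differences between birds and far fewer changed genes than were found here. Intervals and the floor of 3 counts cover counting error only.

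Genes are named as the 12 largest folds in each direction with a mean of at least 10 CPM, the 3 smallest p in each direction per list, those that differed within hippocampus, the 6 smallest p between sexes, the 5 largest spreads over birds, and list members that did not pass. A few genes that these rules pick are not reported here. Others are marked as chosen after their values were seen. Members and lists were chosen with earlier results of these data known. Alternatives were DESeq2 1.42.0, limma 3.58.1 voom, other scalings and filters, no block, each sex alone, and each bird left out.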

Additional observations from a re-analysis of the deposited data

How the results depend on the processing

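Of 168 named genes, 155 kept their side of the threshold under each of the 35 alternatives in which they were tested. The exceptions were C2H7orf25 and E2F4, which passed it under some, and ASPA, DACH1, KL, SLC6A11, VWF, TAGLN, PSMD1, RARA, RARG, MLC1 and TEK, which lost it in subsets of birds or over all 72 libraries. No gene changed direction while past the threshold in the main fit or the alternative. Direction was not compared for genes past it in neither. The number of genes past the threshold was 5812 with DESeq2, 5620 with limma voom and 5359 to 5685 with 1 bird left out. Without the pairing by bird as a block it was 5363. Rises and falls numbered 2627 and 2896 in the main fit, 2445 and 3367 with DESeq2, and 2346 and 3204 with RLE scaling. With upper quartile scaling they numbered 2269 and 3307, so the shares of all genes set beside the lists depend on the scaling. Genes lower by a log2 fold of at least 1 numbered 1335 with no filter on low counts and 425 with a minimum count of 50, against 755, as other genes were then tested. Between the sexes, 1 gene (TTR) passed with no filter. Of 62 list counts, 25 moved by over 1.5 times under some alternative, mostly with fewer genes or birds: with the minimum count of 50, 13 Wnt, BMP, Notch and hedgehog genes, 9 neuromodulator receptor genes and 7 matrix genes fell. Leaving out birds 6, 11 and 16 together was chosen after seeing the data. The striatum library was the deeper one in 22 of 24 birds, but more genes had a count in the caudal library in 21 of 24.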
